A study of Mus musculus with 15 samples.

Results

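Mitochondrial ribosomal protein genes were followed across 15 RNA sequencing libraries labelled as MDA-MB-468, an established human breast carcinoma line. The members were all gene names formed of MRPL or MRPS, a number and at most 1 letter from A to C. There were 78 of them among 56967 usable names: 49 MRPL names and 29 MRPS names. The 5 groups of 3 libraries each carried 1 short hairpin RNA: shSHCBP1_1 or shSHCBP1_2 against SHCBP1, shTMEM45A set 4 or set 2 against TMEM45A, or a control hairpin (NC). All groups carry the same line label, and the labels describe no further treatment. The series asks what follows when either gene, taken from a prognosis model of breast cancer, is knocked down.

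The mitochondrial ribosome translates the few messenger RNAs made from the mitochondrial genome, which encode core subunits of the respiratory chain. Its ribosomal RNAs come from that genome, but all of its proteins are encoded in the nucleus, made in the cytosol and imported. The large subunit (MRPL proteins) forms peptide bonds and sits on the inner membrane, and the small subunit (MRPS proteins) reads the message. Some of the proteins descend from bacterial ribosomal proteins, and others were added during mitochondrial evolution. Tumour cells that rely on respiration depend on this machinery.

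Library totals ran from 13780294 to 16484000 counts. NC and both SHCBP1 groups were deposited in one table and both TMEM45A groups in another, so every difference between an shTMEM45A set and NC is also a difference between tables, and the 2 cannot be told apart. The targeted transcript was not lower where the labels name SHCBP1: it averaged 45.7 ± 1.88 CPM (counts relative to a TMM-scaled library total; SD, n = 6), against 44.1 ± 2.53 CPM in NC (n = 3). These are therefore called the libraries labelled shSHCBP1. TMEM45A averaged 18.6 ± 1.54 CPM in shTMEM45A libraries (n = 6) and 26.6 ± 2.09 CPM in NC (n = 3), a log2 change of -0.52 (SE 0.09, edgeR adjusted p = 3.32e-06). In this comparison 41.3% of all genes were lower, and the lower quartile of the log2 change of all genes was -0.85. The markers go against the labelled line in part. Of 14 markers of basal-like breast epithelium, 7 had enough counts to be tested: KRT5, KRT6A and KRT6B had no count in any library, and KRT7, KRT14, KRT19 and LCN2 had 3 to 23 counts over all 15. Of the 7 tested, 4 were higher (KRT8, KRT17, KRT18 and EPCAM), 2 lower (EGFR and CDH1) and 1 not called in shTMEM45A libraries, and 1 was higher (KRT8) in those labelled shSHCBP1. The summed level of the 14 was 317 to 365 CPM in shTMEM45A libraries, 174 to 189 CPM in those labelled shSHCBP1 and 162 to 167 CPM in NC. A list of 4 markers of neuronal cells and of an embryonic kidney line was present too, with a sum of 175 to 228 CPM in shTMEM45A libraries, 373 to 447 CPM in those labelled shSHCBP1 and 467 to 478 CPM in NC. Of these 4, 2 were lower (NEFL and NEFM) and 2 not called in shTMEM45A libraries, and 1 was higher (INA) and 2 lower (NEFL and NEFM) in those labelled shSHCBP1. Of 4 immune and stromal markers 2 were tested, and PTPRC had no count. Their sum was 31.1 to 36.5 CPM in shTMEM45A libraries and 47.1 to 53.2 CPM in those labelled shSHCBP1, against 45.9 to 48.8 CPM in NC. The sum hides opposite changes: of the 2 tested, 1 was higher (log2 change 3.69) and 1 lower (-0.64) in shTMEM45A libraries. In those labelled shSHCBP1, 1 was higher and 1 not called (log2 changes 0.04 and 2.28). The part of these shifts in the results below was not tested.

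The members were mostly higher in shTMEM45A libraries. Their joint share of counts was 0.880 ± 0.00800% for set 4 and 0.908 ± 0.0125% for set 2, against 0.497 ± 0.00126% in NC (SD, n = 3 each). Every shTMEM45A library lay above every NC library for this share. The share was 0.531 ± 0.00758% and 0.532 ± 0.00191% in the libraries labelled shSHCBP1_1 and shSHCBP1_2. These are bulk samples, in which a change in RNA per cell and a change in the mix of cells cannot be told apart.

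**Figure D1:**
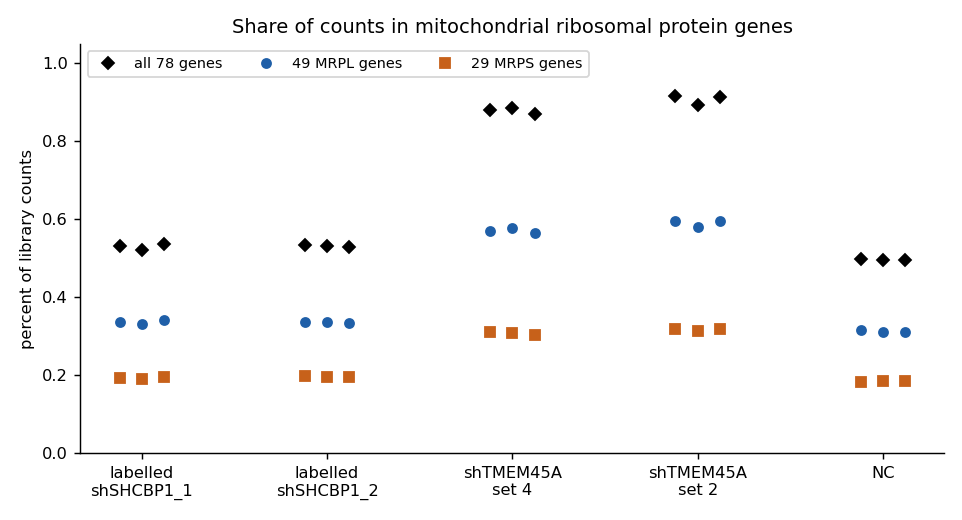
Percent of each library's counts (y axis, from 0) that fell on all 78 mitochondrial ribosomal protein genes, on the 49 MRPL and on the 29 MRPS genes; each point is 1 library, 3 per group. The shTMEM45A libraries hold 0.871% to 0.916% of counts in these genes, and the NC libraries 0.496% to 0.498%.

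By the mean of both shTMEM45A sets, 65 of 78 members were higher than in NC and 6 lower at an adjusted p under 0.05 (edgeR quasi-likelihood test, adjusted over 19051 genes). Across all genes tested, 78.6% passed in this comparison, 37.3% higher and 41.3% lower. The member median was a log2 change of 1.01, beside -0.05 for all genes, and single members ran from -3.04 to 2.50. Under total-count scaling, which moved the median of all genes by -0.19, the counts were 60 higher and 11 lower and the member median 0.82. With that scaling 31.1% of all genes were higher and 47.1% lower. More than 2-fold differences that passed were found for 42 members, 40 of them higher. Of all 19051 genes, 7754 had such differences, 3728 higher and 4026 lower. All 6 shTMEM45A libraries lay above all 3 NC libraries for 64 members (82.1%, against 31.7% of all genes) and below them for 6 (7.69%, against 36.1%). The sets gave similar counts: 66 members were higher and 7 lower in set 4 (median 0.93; of all genes 74.4% passed, 35.6% higher and 38.9% lower), and 64 higher and 6 lower in set 2 (median 1.09; 75.9% passed, 36.1% higher and 39.8% lower). Those past the threshold in both sets were 64 higher and 6 lower, and none passed in opposite directions. No share over all genes was computed for calls in both sets.

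**Figure D2:**
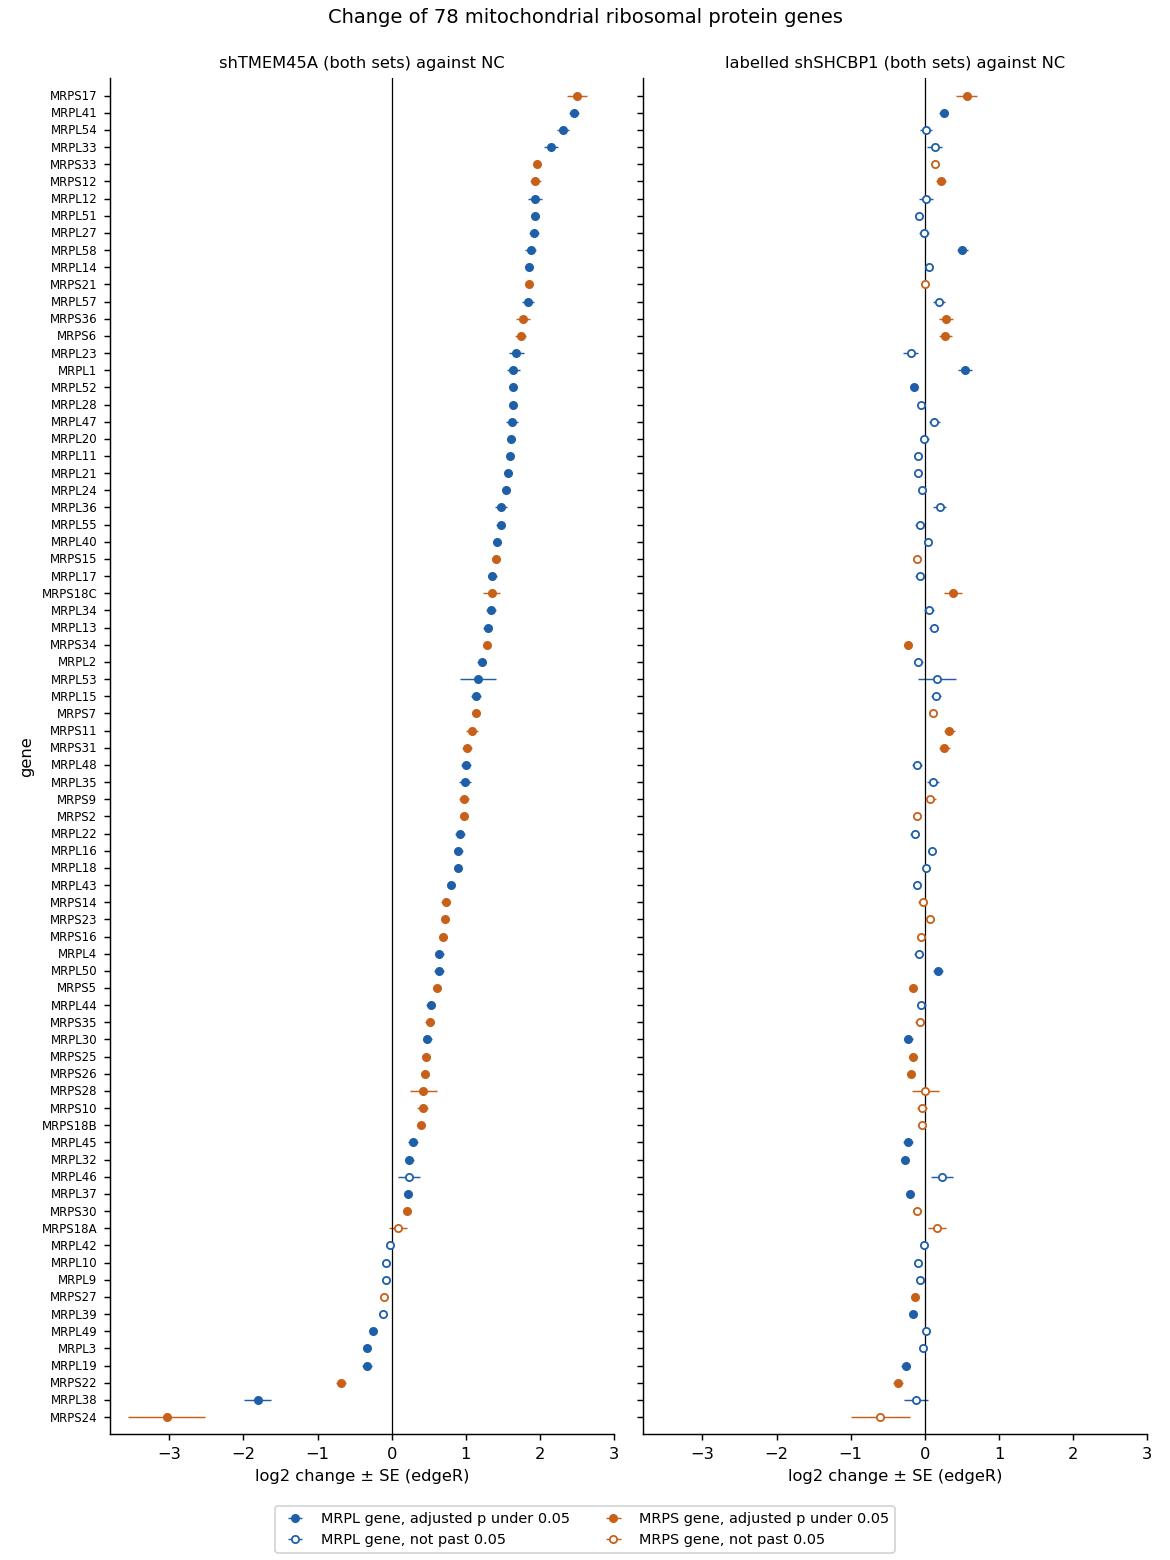
Log2 change with its SE (x axis) of each of the 78 genes (rows, ordered by the left panel), for the mean of both shTMEM45A sets against NC on the left and the mean of both sets labelled shSHCBP1 against NC on the right; filled points passed an adjusted p of 0.05. On the left 65 filled points lie above 0 and 6 below it, while on the right 74 of 78 lie within 0.5 of 0.

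Genes of both name classes, MRPL and MRPS, were mostly higher. The names do not wholly follow the subunits, since MRPS18A and MRPS30 belong to the large one. Of 49 MRPL genes, 40 were higher and 4 lower in shTMEM45A libraries (median log2 change 1.22), and of 29 MRPS genes, 25 were higher and 2 lower (median 0.73). Of 46 members with a bacterial counterpart, 41 were higher and 3 lower (median 1.25; 39 and 5, median 1.06, under total counts). Of 28 without a close one, 21 were higher and 3 lower (median 0.58; 18 and 6, median 0.39, under total counts). Differences between these classes were not tested. Both counterpart lists were compiled with earlier results of these data known, and they do not cover every member.

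The largest rise among small-subunit genes was that of MRPS17, whose bacterial relative binds ribosomal RNA early in assembly. It stood at 21.5, 19.3 and 20.99 CPM in shTMEM45A set 4 and at 21.7, 21.5 and 18.3 CPM in set 2, against 3.68, 3.92 and 3.32 CPM in NC. The groups did not overlap, and the log2 change was 2.50 (SE 0.13, adjusted p = 5.75e-17). MRPS33, a small-subunit protein without a bacterial counterpart, had 142, 146 and 150 CPM in set 4 and 154, 150 and 142 CPM in set 2, against 39.1, 36.7 and 37.5 CPM in NC. Again no library overlapped, and the change was 1.96 (SE 0.06, adjusted p = 8.41e-24). MRPS12, the protein of the decoding centre, had 148, 139 and 131 CPM in set 4 and 171, 142 and 164 CPM in set 2, against 36.5, 38.5 and 41.5 CPM in NC. Its change was 1.94 (SE 0.07, adjusted p = 3.61e-21), with every shTMEM45A library far above NC.

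Among large-subunit genes, MRPL41, a protein without a bacterial counterpart, had 509, 538 and 518 CPM in shTMEM45A set 4 and 589, 446 and 558 CPM in set 2, against 92.4, 91.1 and 103 CPM in NC. The lowest shTMEM45A library still exceeded the highest NC library by a wide margin, and the log2 change was 2.46 (SE 0.06, adjusted p = 1.45e-24). MRPL54, likewise specific to the mitochondrial ribosome, had 97.3, 113 and 96.0 CPM in set 4 and 115, 96.1 and 116 CPM in set 2, against 20.5, 21.8 and 21.1 CPM in NC. The groups were apart, with a change of 2.32 (SE 0.08, adjusted p = 1.59e-21). MRPL33, which has a bacterial counterpart, had 79.3, 92.2 and 92.8 CPM in set 4 and 67.1, 98.8 and 84.1 CPM in set 2, against 18.7, 19.8 and 19.4 CPM in NC (log2 change 2.15, SE 0.10, adjusted p = 7.73e-19). It was higher in all 6 libraries.

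The stalk of the large subunit, which recruits translation factors, was split. MRPL12, its flexible part, had 207, 208 and 168 CPM in shTMEM45A set 4 and 227, 151 and 237 CPM in set 2, against 52.2, 50.05 and 54.1 CPM in NC. All shTMEM45A libraries were higher, by 1.94 on the log2 scale (SE 0.10, adjusted p = 1.17e-17). MRPL10, the base to which MRPL12 binds, had 86.1, 87.1 and 94.1 CPM in set 4 and 77.4, 88.0 and 87.0 CPM in set 2, against 89.4, 92.7 and 91.8 CPM in NC. Here the groups overlapped and the change of -0.08 (SE 0.05) did not pass (adjusted p = 0.164). Under total-count scaling the change of MRPL10 was -0.27 and passed. The second library of set 2 was the lowest of its set for MRPL12, MRPL41 and MRPL54.

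MRPL45, which ties the ribosome to the inner membrane, and MRPL58, a peptidyl-tRNA hydrolase that became a ribosomal protein, differed in size of change. MRPL58 had 74.2, 67.3 and 61.6 CPM in shTMEM45A set 4 and 81.2, 84.3 and 85.3 CPM in set 2, against 21.9, 17.9 and 21.8 CPM in NC. Its log2 change was 1.87 (SE 0.07, adjusted p = 4.72e-20), with set 2 above set 4 and both above NC. MRPL45 had 42.4, 40.0 and 42.1 CPM in set 4 and 36.5, 38.7 and 37.4 CPM in set 2, against 33.2, 33.6 and 30.4 CPM in NC. The groups were apart and the change of 0.29 (SE 0.07) passed (adjusted p = 0.000400), but under total-count scaling it was 0.09 and did not. MRPL45 is uncertain, because a pseudogene row, MRPL45P2, held 29.5% as many counts as the gene itself.

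MRPS18A, MRPS18B and MRPS18C are 3 paralogs of a single bacterial protein. MRPS18A is part of the large subunit despite its name, as is MRPS30, while MRPS18B and MRPS18C belong to the small subunit. MRPS18C had 24.6, 26.2 and 18.3 CPM in shTMEM45A set 4 and 30.7, 28.2 and 24.2 CPM in set 2, against 11.2, 8.19 and 10.4 CPM in NC. The groups were apart (log2 change 1.35, SE 0.12, adjusted p = 1.46e-11). MRPS18B had 131, 132 and 130 CPM in set 4 and 127, 121 and 123 CPM in set 2, against 95.6, 98.9 and 97.3 CPM in NC, also without overlap (0.39, SE 0.05, adjusted p = 7.32e-09). MRPS18A had 14.3, 21.8 and 14.5 CPM in set 4 and 16.3, 13.03 and 12.4 CPM in set 2, against 14.8, 12.9 and 15.7 CPM in NC. These groups overlapped, with 1 high library in set 4, and the change of 0.08 (SE 0.12) did not pass (adjusted p = 0.530). MRPS30 rose slightly, by 0.20 (SE 0.06, adjusted p = 0.00161), and this was 0.01 and not past the threshold under total-count scaling.

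**Figure D3:**
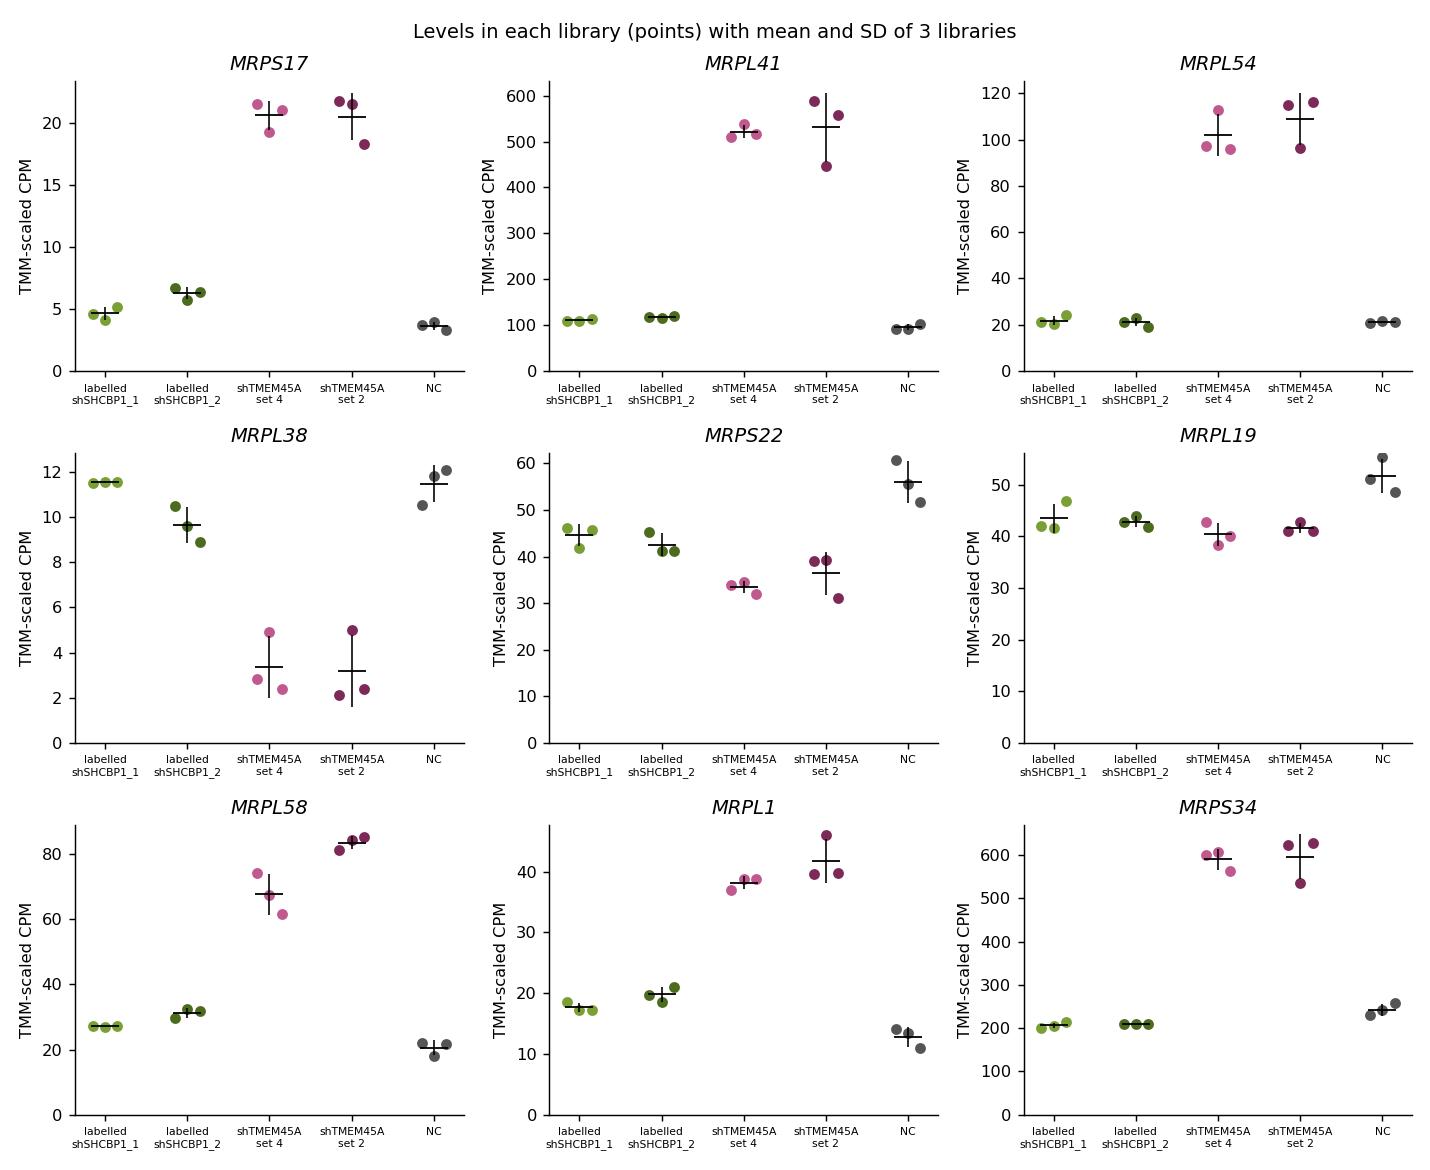
Level of 9 genes in each library (points, TMM-scaled CPM on linear axes from 0) with the mean and SD of the 3 libraries of a group. MRPS17, MRPL41, MRPL54, MRPL58, MRPL1 and MRPS34 are higher in all shTMEM45A libraries than in NC, and MRPL38, MRPS22 and MRPL19 are lower.

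Against this direction, 6 members were lower in shTMEM45A libraries. MRPL38, a large-subunit protein without a bacterial counterpart, had 2.81, 4.91 and 2.37 CPM in set 4 and 2.11, 5.00 and 2.40 CPM in set 2, against 10.55, 11.8 and 12.1 CPM in NC. It was lower in all 6 libraries, although the second library of each set stood above its neighbours, and the log2 change was -1.81 (SE 0.18, adjusted p = 3.17e-10). MRPS22, a mitochondrion-specific small-subunit protein whose mutation causes respiratory chain disease, had 33.9, 34.6 and 31.9 CPM in set 4 and 39.0, 39.2 and 31.1 CPM in set 2, against 60.8, 55.6 and 51.8 CPM in NC. The groups did not overlap, with a change of -0.68 (SE 0.07, adjusted p = 5.63e-10). MRPL19, whose bacterial relative lies at the subunit interface, had 42.8, 38.3 and 40.0 CPM in set 4 and 41.1, 42.7 and 41.0 CPM in set 2, against 51.1, 55.3 and 48.7 CPM in NC (-0.33, SE 0.06, adjusted p = 1.77e-05). MRPL3, a relative of a bacterial protein near the peptidyl transferase centre, had 106 to 120 CPM in shTMEM45A libraries, against 139 to 146 CPM in NC (-0.33, SE 0.05, adjusted p = 2.20e-07). Neither gene overlapped with NC. MRPL49, named after its values were seen, was lower by a change of -0.25 (SE 0.05, adjusted p = 5.76e-05).

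MRPS24, whose bacterial relative lies where messenger RNA enters the small subunit, had the lowest values and only a few counts. It had 7, 7 and 3 counts in shTMEM45A set 4 and 0, 1 and 1 in set 2, against 21, 23 and 10 in NC. The ratio to NC was 0.329 in set 4 (exact 95% interval 0.179 to 0.576, counting error only) and 0.0383 in set 2 (0.00452 to 0.145), where it rests on 2 counts. It had 17, 13 and 13 counts in the libraries labelled shSHCBP1_1 and 8, 17 and 12 in shSHCBP1_2, which overlapped NC. The fitted log2 change for shTMEM45A was -3.04 (SE 0.52, adjusted p = 5.36e-06), and no bound is drawn from it. The readthrough name URGCP-MRPS24 held 5 counts in all libraries together.

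The remaining 7 members did not pass for shTMEM45A. Besides MRPL10 and MRPS18A they were MRPL9, MRPL39, MRPL42, MRPL46 and MRPS27, named after their values were seen, with log2 changes of -0.12 to 0.23. Between the 3 libraries of a group, the 72 members with at least 200 counts per library on average had a median coefficient of variation of 4.48% (set 4), 6.66% (set 2) and 4.34% (NC). MRPS18A varied most in set 4 (25.3%) and MRPL12 most in set 2 (23.04%).

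Members are mostly short transcripts, and the shortest transcripts as a whole were higher in shTMEM45A libraries. Lengths were taken from mouse genes of the same symbol, since no human annotation was used here, and were found for 12716 genes and all 78 members. The median length was 1224.5 nt for members and 2737 nt for all genes, and 51 members lay among the 2544 shortest genes (up to 1579.5 nt). These 2544 genes had a median log2 change of 0.84, and the 2542 longest one of -0.63. Across genes, which are not replicates, Spearman's rho between length and change was -0.47 (n = 12716), and across members -0.39 (n = 78). The shorter 39 members had a median of 1.41 and the longer 39 one of 0.70.

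With the smooth length trend of all genes subtracted, the member median was 0.47 for shTMEM45A, beside 1.01 before, and 60 of 78 members were above 0. The trend took up 17.8% of the variance over genes. A trend on coding length instead gave 0.56. MRPL1, with a long mouse transcript, was at 1.89 after subtraction, beside 1.64 before, and MRPS17 at 1.59, beside 2.50. MRPL52, one of the shortest members, was at 0.10, beside 1.64, and MRPL30 at -0.67, beside 0.48. MRPL19, called lower before (-0.33), was at 0.19. For the libraries labelled shSHCBP1 the rho with length was -0.03.

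**Figure D4:**
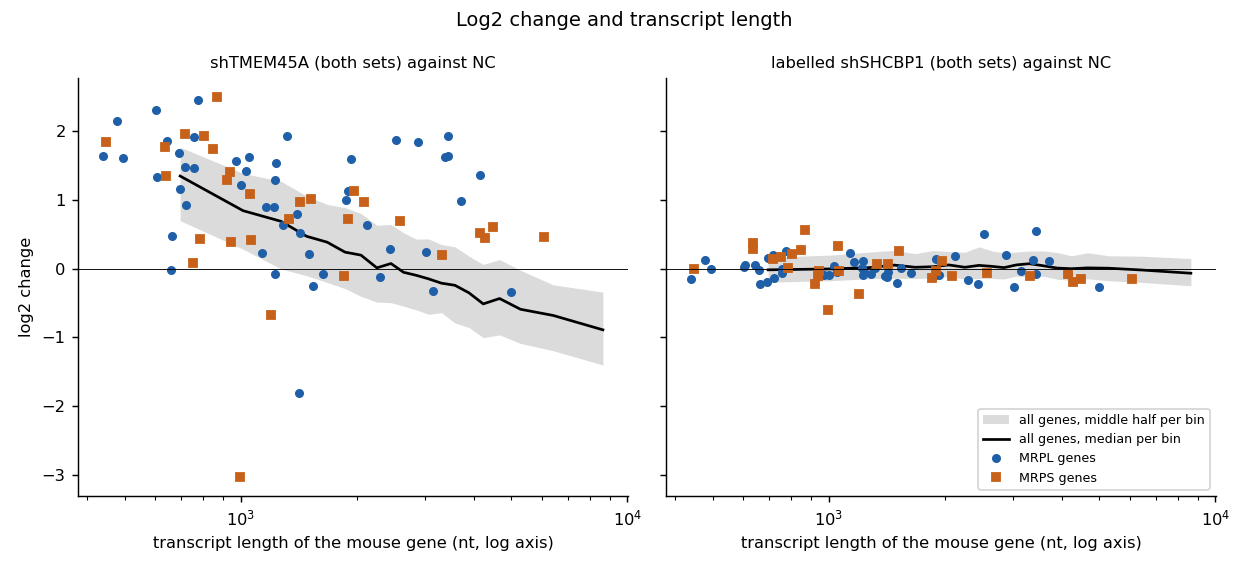
Log2 change against NC (y axis) by transcript length of the mouse gene (nt, log x axis), for shTMEM45A on the left and the libraries labelled shSHCBP1 on the right; the line and band give the median and interquartile range of all genes in 20 length bins, points are the 78 members. On the left the line falls with length and most members lie above it; on the right it is nearly flat.

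The members moved little, and in both directions, in the libraries labelled shSHCBP1. By the mean of both sets, 11 of 78 were higher and 13 lower than in NC, while 31.1% of all genes passed, 15.2% higher and 15.9% lower. This is close to the background. The median log2 change was -0.03, beside 0.01 for all genes, and no member changed 2-fold. Of all 19051 genes, 594 passed with more than a 2-fold change. The split turned with scaling, as did that of all genes. Under RLE 6 members were higher and 26 lower (median -0.10), where 11.2% of all genes were higher and 22.8% lower. Total counts, which moved the median of all genes by 0.15, gave 34 higher and 1 lower (median 0.12). The shares of all genes there were 30.4% higher and 6.23% lower. All 6 libraries lay above NC for 13 members (16.7%, against 15.8% of genes) and below it for 15 (19.2%, against 17.7%). By set, 6 were higher and 6 lower in shSHCBP1_1, where 19.9% of genes passed (9.34% higher, 10.5% lower). In shSHCBP1_2, 10 were higher and 12 lower, where 31.1% passed (15.6% higher, 15.4% lower). These splits were 3 to 18 and 8 to 28 under RLE, and 29 to 0 and 32 to 1 under total counts. No share over all genes was computed for single sets under these scalings. Without NC replicate 1 or 2 the mean of both sets gave 16 calls in place of 24.

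The members that passed in both sets were 5 higher and 6 lower. Here too, the share of all genes called in both sets was not computed. MRPL1, whose bacterial relative forms the stalk at the exit site, had 18.5, 17.2 and 17.3 CPM in the libraries labelled shSHCBP1_1 and 19.8, 18.5 and 21.02 CPM in shSHCBP1_2, against 14.02, 13.5 and 10.9 CPM in NC. It was higher in all 6 libraries, by 0.54 on the log2 scale (SE 0.09, adjusted p = 2.94e-05). MRPL58 had 27.3, 26.8 and 27.2 CPM in shSHCBP1_1 and 29.6, 32.4 and 31.9 CPM in shSHCBP1_2, against 21.9, 17.9 and 21.8 CPM in NC. It too did not overlap with NC (0.50, SE 0.08, adjusted p = 6.36e-06). MRPS11, of the platform of the small subunit, rose by 0.33 (SE 0.08), its small-subunit partner MRPS6 by 0.28 (SE 0.08), and MRPL41 by 0.26 (SE 0.06). No library of these 3 genes overlapped with NC. The rise of MRPS6 did not pass under RLE (0.21).

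MRPS22 was the member with the largest fall that passed in the libraries labelled shSHCBP1. It had 46.2, 41.8 and 45.7 CPM in shSHCBP1_1 and 45.4, 41.1 and 41.1 CPM in shSHCBP1_2, against 60.8, 55.6 and 51.8 CPM in NC. The 6 libraries lay below NC, with a log2 change of -0.36 (SE 0.07, adjusted p = 0.000167). MRPL32, which is processed by a mitochondrial protease before it joins the ribosome, had 60.6, 57.4 and 54.7 CPM in shSHCBP1_1 and 56.2, 53.0 and 52.8 CPM in shSHCBP1_2, against 69.5, 67.1 and 64.9 CPM in NC (-0.27, SE 0.06, adjusted p = 0.000709). MRPL19 (-0.26, SE 0.06), MRPS34 (-0.22, SE 0.05) and MRPL30 (-0.22, SE 0.06) also fell. Under total-count scaling the changes of MRPL32, MRPL19, MRPS34 and MRPL30 were -0.07 to -0.11 and did not pass, while that of MRPS22 still passed.

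Of the members chosen for their roles, MRPS12 (0.22, SE 0.07, adjusted p = 0.0187) and MRPS18C (0.38, SE 0.12, adjusted p = 0.0189) were higher and MRPL45 (-0.22, SE 0.07, adjusted p = 0.0129) lower in the libraries labelled shSHCBP1. These 3 calls were fragile. Without NC replicate 2 all of them were lost, at log2 changes of 0.21, 0.25 and -0.20, and the call of MRPS12 also ended without NC replicate 1 (0.17), shSHCBP1_1 replicate 3 (0.19) or shSHCBP1_2 replicate 3 (0.18). That of MRPL45 ended without NC replicate 1 (-0.21) as well. MRPL10 (-0.10), MRPL12 (0.01), MRPS18A (0.16), MRPS18B (-0.03) and MRPS30 (-0.11) did not pass.

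The targets were also compared with each other. This comparison too runs between the separate deposits, so target and deposit cannot be told apart. By their means, 65 members were higher and 5 lower in shTMEM45A libraries than in those labelled shSHCBP1 (median log2 change 0.98), with 79.3% of all genes passing, 35.2% higher and 44.1% lower (median -0.12). Under total-count scaling 61 members were higher and 13 lower, with a median of 0.64, while the median of all genes moved by -0.34 and 24.3% of all genes were higher and 57.4% lower. Spearman's rho between length and change was -0.52 across genes (n = 12716). With the length trend subtracted, the member median was 0.60. MRPL54 differed most, by 2.30 (SE 0.06, adjusted p = 1.02e-24), then MRPL41 by 2.21 (SE 0.05) and MRPL33 by 2.02 (SE 0.07). On the other side were MRPS24, MRPL38 (-1.69, SE 0.16) and MRPS22 (-0.32, SE 0.06, adjusted p = 2.07e-05). MRPL19 was lower than NC for both targets, and the difference between them, -0.07 (SE 0.05), did not pass (adjusted p = 0.194).

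Both comparisons with NC share the NC libraries, so their values are set side by side only. By adjusted p, 11 members were higher than NC for both targets and 2 lower for both. No share over all genes was computed for such pairs of calls. For 9 members the shTMEM45A libraries were higher and those labelled shSHCBP1 lower than NC, and for 0 the reverse held. The 5 with the widest gap were MRPL52 (1.64 for shTMEM45A, -0.15 for shSHCBP1), MRPS34 (1.29 and -0.22), MRPS5 (0.61 and -0.16), MRPL30 (0.48 and -0.22) and MRPS26 (0.45 and -0.19). MRPS34, a small-subunit protein without a bacterial counterpart, had 599, 607 and 563 CPM in set 4 and 624, 536 and 628 CPM in set 2, and 201 to 213 CPM in the libraries labelled shSHCBP1, against 230, 241 and 257 CPM in NC. NC lay between the targets with no overlap on either side. The falls of these 5 did not pass under total-count scaling, and MRPL52, MRPS26 and MRPS5 also lost the call when single libraries were left out: MRPS26 without NC replicate 3 (-0.14), MRPS5 without NC replicate 1 (-0.13), and MRPL52 without any 1 of 7 libraries.

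Hairpin sets of one target differed in few members. Between shSHCBP1_2 and shSHCBP1_1 edgeR called 0 members, where 0.835% of all genes passed, 0.499% higher and 0.336% lower. An unadjusted p under 0.05 was found for 9 members, DESeq2 called 1 and a fit of these 2 groups alone called 6. No share over all genes was computed for these other counts. Between shTMEM45A set 2 and set 4, 3 members were higher in set 2 and 0 lower, where 5.27% of genes passed, 1.95% higher and 3.32% lower. At an unadjusted p under 0.05 there were 19 members, a count for which no share over all genes was computed. MRPL58 differed by 0.30 (SE 0.07, adjusted p = 0.0122), MRPL55, a mitochondrion-specific protein, by 0.21 (SE 0.06, adjusted p = 0.0424), and MRPS15 by 0.16 (SE 0.04, adjusted p = 0.0328). MRPS15, whose bacterial relative binds early in small-subunit assembly, had 301, 304 and 299 CPM in set 2, against 269, 271 and 270 CPM in set 4. A fit of set 2 and set 4 alone called 0 members, and leaving out single libraries gave 1 to 7 calls, the 7 without set 2 replicate 2.

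Other genes of the mitochondrial ribosome and its assembly were counted from lists, to be read beside the shares of all genes. These were 37.3% higher and 41.3% lower for shTMEM45A, and 15.2% higher and 15.9% lower for the libraries labelled shSHCBP1. Under total-count scaling they were 31.1% and 47.1% for shTMEM45A, and 30.4% and 6.23% for the libraries labelled shSHCBP1. Of 5 ribosomal proteins under other symbols, 4 were higher and 1 lower in shTMEM45A libraries. AURKAIP1, a small-subunit protein, averaged 366 ± 34.0 CPM in shTMEM45A libraries (n = 6) and 76.3 ± 4.44 CPM in NC (n = 3; log2 change 2.26, SE 0.05). GADD45GIP1, a large-subunit protein, averaged 424 ± 48.1 CPM against 91.3 ± 5.97 CPM in NC (2.21, SE 0.06). PTCD3, which sits on the small subunit, was lower, at 65.0 ± 8.99 CPM against 129 ± 2.12 CPM in NC (-1.00, SE 0.06), and fell by 0.24 (SE 0.06) in the libraries labelled shSHCBP1. That fall was the single call of 5 there, and it did not pass under total-count scaling (-0.08).

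Of 28 assembly factors, 20 were higher and 5 lower in shTMEM45A libraries (median log2 change 0.44; 16 and 7 under total counts), and 9 higher and 8 lower in those labelled shSHCBP1 (median 0.10; 16 and 0 under total counts). DDX28, a helicase of large-subunit assembly, averaged 50.3 ± 4.17 CPM in shTMEM45A libraries and 10.9 ± 1.11 CPM in those labelled shSHCBP1, against 5.68 ± 0.172 CPM in NC. Both targets were apart from NC, at 3.14 (SE 0.10) and 0.94 (SE 0.11). MRM3, a methyltransferase of the large ribosomal RNA, rose by 2.43 (SE 0.07) in shTMEM45A libraries, and MRM1, another one, by 1.18 (SE 0.15) in those labelled shSHCBP1. MTG1, a GTPase of large-subunit assembly, changed by -1.43 (SE 0.12) in shTMEM45A libraries and by -0.35 (SE 0.12, adjusted p = 0.0212) in those labelled shSHCBP1, where the call ended without NC replicate 1 (-0.31) or 3 (-0.34). METTL17, a factor of small-subunit assembly, was lower for shTMEM45A (-0.84, SE 0.06), and RBFA, which acts on the small subunit, was lower in the libraries labelled shSHCBP1 (-0.33, SE 0.09), though under total-count scaling this was -0.18 and did not pass.

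**Figure D5:**
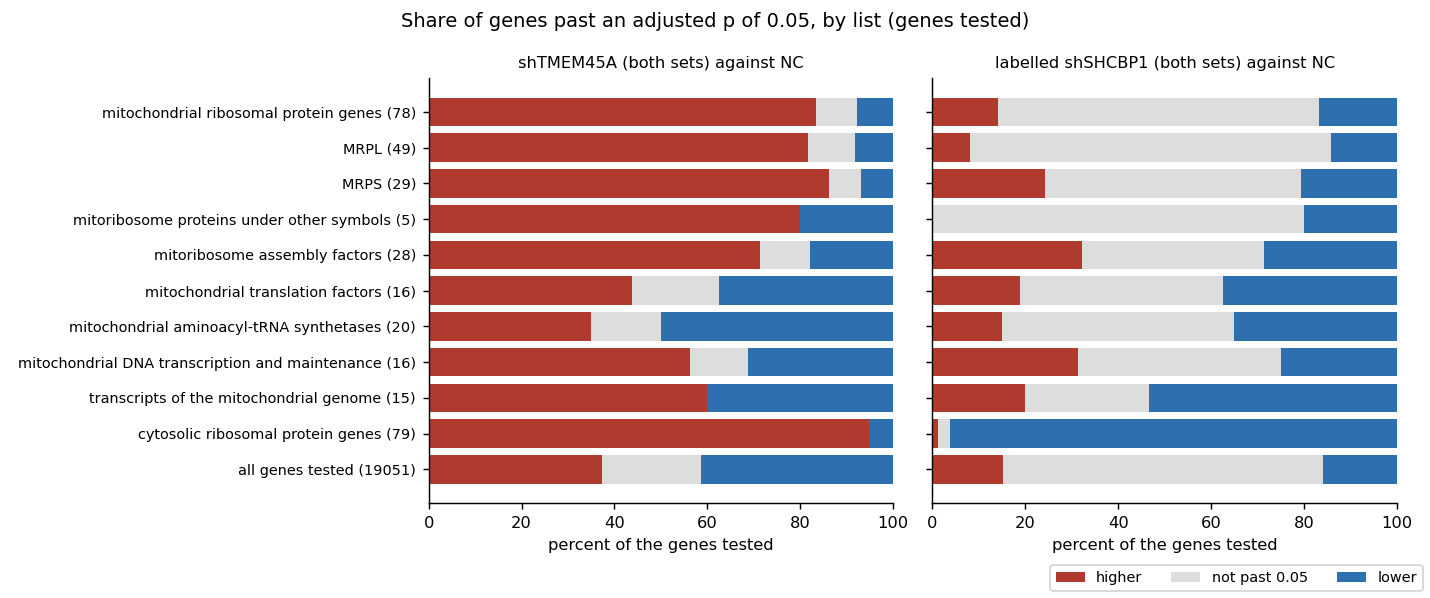
Percent of the genes tested in each list (x axis; list size in brackets) that were higher, not past an adjusted p of 0.05, or lower than NC, for shTMEM45A on the left and the libraries labelled shSHCBP1 on the right; the bottom row holds all 19051 genes. On the left 83.3% of the 78 members are higher, beside 94.9% of cytosolic ribosomal protein genes; on the right the members split 14.1% to 16.7%, while 96.2% of the cytosolic genes are lower.

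Translation factors of mitochondria were called in both directions. Of 16 tested, 7 were higher (43.75%) and 6 lower (37.5%) in shTMEM45A libraries, close to the shares of all genes (37.3% and 41.3%), and 3 higher and 6 lower in those labelled shSHCBP1 (5 and 3 under total counts). SLIRP (2.06, SE 0.05), an RNA-stabilising partner of LRPPRC, and TSFM (1.70, SE 0.08), the exchange factor of TUFM, were higher in shTMEM45A libraries, while GFM2 (-1.18, SE 0.06), a recycling factor, and LRPPRC (-0.95, SE 0.05) were lower. LRPPRC had 163 ± 11.8 CPM in shTMEM45A libraries and 240 ± 4.01 CPM in those labelled shSHCBP1, against 313 ± 1.16 CPM in NC, with no overlap. For shSHCBP1, TACO1, an activator of cytochrome oxidase translation, rose by 0.63 (SE 0.09), the initiation factor MTIF3 rose by 0.23 (SE 0.08), and TUFM, the elongation factor, fell by 0.42 (SE 0.04). The rise of MTIF3 did not pass under RLE (0.16) or without 5 of the single libraries.

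Cytosolic ribosomal protein genes gave a second ribosome to set beside the members. Of 79 tested, 75 were higher and 4 lower in shTMEM45A libraries (median log2 change 1.25), and 1 was higher and 76 lower in those labelled shSHCBP1 (median -0.31; 2 and 63 under total counts). Their share of counts was 19.4 ± 0.269% for set 4 and 19.3 ± 0.210% for set 2, against 9.91 ± 0.156% for NC (n = 3 each). When scaling factors were computed without either kind of ribosomal gene, the members still had 65 higher and 6 lower for shTMEM45A, and 11 higher and 12 lower for the libraries labelled shSHCBP1.

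The RNA partners and products of the mitochondrial ribosome come from the mitochondrial genome, whose transcripts were all 15 past the threshold in shTMEM45A libraries, 9 higher and 6 lower. MT-ND3 averaged 1396 ± 128 CPM in shTMEM45A libraries, against 195 ± 7.96 CPM in NC (2.83, SE 0.05), and MT-CO2 rose by 2.29 (SE 0.03). MT-ND4L (-1.93, SE 0.06) and MT-ND5 (-1.22, SE 0.04) were lower. The ribosomal RNAs, named after their values were seen, parted: MT-RNR1, of the small subunit, averaged 2774 ± 242 CPM against 1538 ± 34.6 CPM in NC (0.85, SE 0.04), and MT-RNR2, of the large subunit, 5600 ± 303 CPM against 6423 ± 207 CPM in NC (-0.20, SE 0.03). Poly(A) selection limits what these levels say of ribosomal RNA. The joint share of mitochondrial transcripts was 3.41 ± 0.152% for set 4 and 3.89 ± 0.127% for set 2, against 3.54 ± 0.0541% for NC. Among the libraries labelled shSHCBP1, 3 were higher and 8 lower than in NC (6 and 2 under total counts), with MT-ND3 and MT-CYB (0.21 each) up and MT-ND4L (-0.32, SE 0.06) down.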

How the data were processed

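The authors deposited 2 tables of raw counts per gene symbol, 58735 rows each, with no normalization per the file headers. Per the labels' protocols, polyadenylated RNA was copied with random primers using an unstranded kit, so MRPL23 and MRPS30 cannot be separated from their overlapping non-coding neighbours. The sources used here name neither aligner nor counting program. The labels name the mouse and the submitters' processing notes mm10, but the tables carry human symbols and were treated as human. Set 4 columns were taken as the labels' set 1 by elimination. Names on several rows or turned into dates (200 names, 1768 rows) were left out.

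Genes kept by filterByExpr (count minimum 10, total minimum 15) numbered 19051, with all 78 members. TMM-scaled counts of all 15 libraries entered a single edgeR 4.0.16 quasi-likelihood fit of 5 group means in R 4.3.3. P-values were adjusted by Benjamini-Hochberg over all genes tested, with a threshold of 0.05. SE is the absolute log2 change over the square root of F. The labels do not say whether replicates were separate cultures, so p-values measure the spread between libraries, which may be technical. Alternatives were RLE, total-count and upper-quartile scaling, no filter, a count minimum of 50, DESeq2 1.42.0, fits of the compared groups alone, a replicate block, leaving out each library, and a length trend on GENCODE M21 mouse transcripts. Coding length and scaling without ribosomal protein genes were added after seeing the data. The fit was tested on simulated data in which a few genes were changed, evenly up and down, in shSHCBP1_1 only. That says nothing of calls where most genes change, as in shTMEM45A libraries. Intervals cover counting error only.

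Members and lists were chosen with earlier results of these data known. Named members are, per target, the 5 largest rises and falls past the threshold in both sets, the 3 largest per direction in other comparisons, the 5 widest opposite pairs, 9 chosen for their roles, and per list up to 2 rises and 2 falls.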

Additional observations from a re-analysis of the deposited data

Results flagged for a closer look

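Between the hairpin sets against TMEM45A, 3 members differed by the test of the difference itself (edgeR, adjusted over 19051 genes). Each was higher in set 2 than in set 4: MRPL58 by a log2 difference of 0.30 (adjusted p = 0.0122), MRPL55 by 0.21 (adjusted p = 0.0424) and MRPS15 by 0.16 (adjusted p = 0.0328). All 3 libraries of set 2 lay above all 3 of set 4 for each gene. Of all genes, 1.95% were higher in set 2 by the same rule. Groups of 3 libraries are too small for the check on single outlying libraries.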

How the results depend on the processing

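For shTMEM45A, 69 to 74 members passed against NC or against the libraries labelled shSHCBP1 under every alternative run, but their split moved under total-count scaling: 60 higher and 11 lower against NC, in place of 65 and 6, and 61 higher and 13 lower against the libraries labelled shSHCBP1, in place of 65 and 5. Total calls in the libraries labelled shSHCBP1 moved too. In shSHCBP1_1, 12 members passed, against 21 under RLE, 29 under total-count scaling, 24 with DESeq2 and 21 in a fit of its groups alone. In shSHCBP1_2, 22 passed, against 36 under RLE and 36 with DESeq2. Between shSHCBP1_2 and shSHCBP1_1, 0 passed, against 1 with DESeq2 and 6 in a fit of these groups alone. Between shTMEM45A set 2 and set 4, 3 passed, against 0 in such a fit. Leaving out each library in turn gave 6 to 16 calls in shSHCBP1_1, 16 to 27 in shSHCBP1_2, 16 to 25 for their mean, 0 to 1 between them, 71 to 73 in set 4, 70 to 72 in set 2, 70 to 73 for their mean, 70 to 71 between targets and 1 to 7 between set 2 and set 4. The lowest counts of shSHCBP1_1 came without shSHCBP1_1 replicate 2 or NC replicate 2 (6 each). MRPL52 turned from -0.15 to 0.0039 under total-count scaling in the libraries labelled shSHCBP1 (adjusted p = 0.966). The cause of these changes was not tested. Among the alternatives, shares over all genes were computed only for other scalings, for the mean of both sets of each target and between targets.

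Replicate numbers did not pair the libraries: same-numbered libraries of different groups had correlations of -0.0353 to 0.0377 over 18 pairs. A replicate block over the numbered libraries gave 11 calls in shSHCBP1_1, 25 in shSHCBP1_2, 23 for their mean, 0 between them and 70 in set 2. Set 4 has no usable numbers and was left out of the block. The length trend rests on mouse lengths. MRPS24 is limited by depth.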

Other observations

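Other nuclear genes that serve mitochondrial gene expression were called in both directions in shTMEM45A libraries. Of 20 aminoacyl-tRNA synthetases of mitochondria, which charge the transfer RNAs used by the mitochondrial ribosome, 7 were higher (35%) and 10 lower (50%) than in NC (edgeR; median log2 change -0.44; 5 and 12 under total-count scaling), near the 37.3% higher and 41.3% lower of all genes. SARS2, for serine, had 0.461 ± 0.177 CPM in shTMEM45A libraries (n = 6), against 4.54 ± 0.354 CPM in NC (n = 3; -3.34, SE 0.26), and HARS2, for histidine, changed by -1.24 (SE 0.06). FARS2, for phenylalanine, was higher by 1.55 (SE 0.12) and PARS2, for proline, by 1.13 (SE 0.17). Against NC, 3 were higher in the libraries labelled shSHCBP1, PARS2 (1.02, SE 0.17) and FARS2 (0.64, SE 0.12) most, and 7 lower (5 and 3 under total-count scaling), with VARS2 (-0.40, SE 0.05) and IARS2 (-0.37, SE 0.04) among them.

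Of 16 genes of mitochondrial DNA transcription and maintenance, 9 were higher and 5 lower in shTMEM45A libraries (7 and 6 under total-count scaling), and 5 higher and 4 lower in those labelled shSHCBP1 (8 and 2 under total-count scaling). POLG, the catalytic subunit of the mitochondrial DNA polymerase, had 25.3 ± 4.53 CPM in shTMEM45A libraries, against 107 ± 4.15 CPM in NC (-2.09, SE 0.06), and its accessory subunit POLG2 changed by -1.01 (SE 0.08). The helicase TWNK was higher by 1.56 (SE 0.07) and the termination factor MTERF1 by 1.42 (SE 0.18). In the libraries labelled shSHCBP1, TWNK was higher by 0.38 (SE 0.08) and MTERF1 by 0.50 (SE 0.19), a call that ended without any 1 of 6 libraries, and POLG2 (-0.38, SE 0.08) and SSBP1 (-0.30, SE 0.04) were lower.

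Between shTMEM45A set 2 and set 4, 11 of 15 mitochondrial genome transcripts were higher in set 2 and 0 lower (edgeR; median log2 difference 0.24), while 3 of the 78 members were higher and 0 lower. Of all genes, 1.95% were higher in set 2 and 3.32% lower. A fit of these sets alone called 0 members.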
